A study of Mus musculus with 6 samples.

Results

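The nucleolar ribosome biogenesis factors are a list of 58 genes, drawn up by known role with earlier results of these data in view, whose proteins transcribe, modify, cut and fold ribosomal RNA in the nucleolus. Counts were summed over each gene's transcript rows, among 38828 genes with a row. RNA was sequenced in 6 libraries of Hepa1-6, a mouse hepatoma line used as a model of liver cells: 3 libraries from cells given siRNA against Crebl2 and 3 from cells given siRNA against Renilla luciferase (Luc siRNA), a sequence that mouse cells lack. The labels give all 6 the same conditions: high-glucose medium (4.5 g/L) with fetal serum at 10%, and knockdown for 3 days with a lipid transfection reagent. Crebl2 encodes a bZIP protein of the CREB kind, and the comparison asks what its depletion does to expression. The labels do not tell whether replicates were grown apart; the p-values therefore rest on a spread between samples that may be technical.

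Ribosomes are built in the nucleolus from a long precursor RNA that RNA polymerase I transcribes. Small nucleolar RNAs guide its chemical marks: box C/D particles, with the methyltransferase fibrillarin, methylate riboses, and box H/ACA particles, with the pseudouridine synthase dyskerin, turn uridine into pseudouridine. A large assembly called the small-subunit processome folds and cuts the precursor, and separate sets of factors mature the small and the large subunit. The pathway is known to be active in growing and dividing cells, and the transcription factor MYC is a known activator of many of its genes.

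Depth was even, at 27082572 to 27710914 counts in the Crebl2 siRNA libraries and 27385328 to 29158489 in the Luc siRNA libraries. Crebl2 itself had 813, 826 and 896 counts in Crebl2 siRNA libraries, against 3248, 3162 and 3041 in Luc siRNA libraries, which leaves 26.9% of its level. Mitochondrial genes took 2.23, 0.859 and 2.09% of counts in Crebl2 siRNA libraries and 2.31, 2.48 and 2.52% in Luc siRNA libraries. Every Crebl2 siRNA library lay below every Luc siRNA library (exact two-sided permutation p = 0.1, the smallest possible). Within its group, Crebl2 siRNA replicate 2 stood apart in that share. Levels are given as CPM, counts scaled to a common library size. Of 13 hepatocyte and hepatoma markers 7 were tested, 2 rose and 3 fell; their summed level was 1057 to 1139 CPM in Crebl2 siRNA and 1116 to 1199 CPM in Luc siRNA libraries. Among them the fibrinogen gene Fgb averaged 17 CPM in Crebl2 siRNA and 45.1 CPM in Luc siRNA cells (log2 fold change -1.41), and the liver transcription factor gene Foxa3 40.8 CPM in Crebl2 siRNA and 71.6 CPM in Luc siRNA cells (-0.81). The transferrin gene Trf averaged 133 CPM with Crebl2 siRNA and 178 CPM with Luc siRNA (-0.42). Afp, the fetal liver gene, averaged 356 CPM with Crebl2 siRNA and 278 CPM with Luc siRNA (0.36), while Hnf4a, Apoa2 and Serpina1a had no counts. The other raised hepatocyte marker, not among those of smallest p, had the highest log2 fold change of that list, 1.77. The median over the tested markers of the list was -0.11. Among markers of other cell types, the 9 fibroblast and mesothelial genes (4 tested, 3 lowered) together held 138 to 149 CPM in Crebl2 siRNA libraries and 249 to 269 CPM in Luc siRNA libraries, with Col3a1 and Pdgfrb at 0. The 7 leukocyte genes (2 tested, 1 lowered) held 1.48 to 1.86 CPM in Crebl2 siRNA and 1.96 to 2.37 CPM in Luc siRNA libraries, with the pan-leukocyte gene Ptprc at 0. The 5 endothelial genes (1 tested and raised) held 33.1 to 37.2 CPM in Crebl2 siRNA and 19.6 to 23.1 CPM in Luc siRNA libraries, with Tek at 0. The part of these shifts in the results that follow was not tested. Reads that fit several transcripts were apparently not counted, so 0 counts for a marker do not show that the gene was silent.

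After Crebl2 knockdown, nearly all nucleolar factors that changed were raised, by small amounts. Of 58 genes, 56 had enough counts to be tested. Among these 26 rose, 1 fell and 29 did not pass the test (edgeR quasi-likelihood test, two-sided, called at an adjusted p under 0.05 over all 11616 genes). Of all genes tested 38.9% were called, 18.8% raised and 20.1% lowered. Among the nucleolar factors the share raised was 46.4% and the share called 48.2%. Their median log2 fold change, Crebl2 siRNA over Luc siRNA, was 0.15, beside 0.01 over all genes, and 44 of the 56 had a positive value. Rises were modest: 25 of the 26 were under 1.5-fold, and log2 fold changes of raised genes ran from 0.14 to 0.82. The 3 Crebl2 siRNA libraries all lay above the 3 Luc siRNA libraries for 33 of 56 genes, and all below for 2, where the shares over all genes tested were 23.8% and 24.9%. In these bulk samples, a change in the number of cells of a type and in RNA per cell cannot be told apart.

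The count of raised genes depended on the libraries used. It was 17 without Luc siRNA replicate 3 and 26 without Crebl2 siRNA replicate 1, the lowest and highest of the runs that left out 1 library. With library size alone as the scaling, which moves the median of all genes to 0.054, 34 rose and 1 fell. Over all genes that scaling put 58.8% of calls upward, against 48.3% in the scaling used here (TMM). The raised count over all genes also moved when 1 library was left out. Without Luc siRNA replicate 3 it was 1701 of 11922 genes, and without Crebl2 siRNA replicate 1 it was 2203 of 11848. With every library it was 2180 of 11616.

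**Figure D1:**
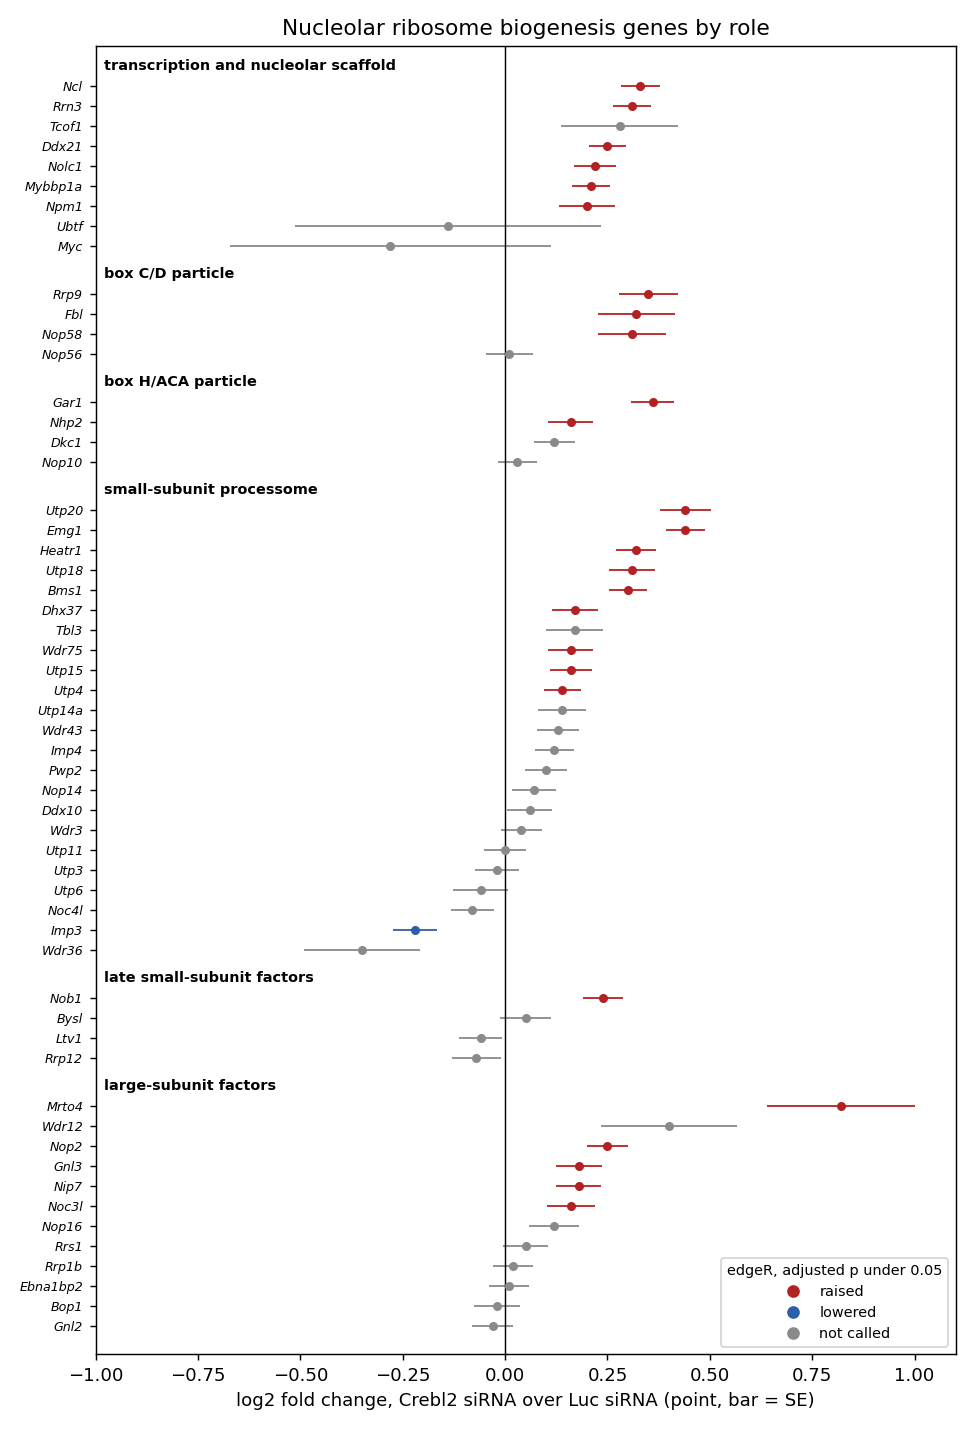
Log2 fold change (x axis, Crebl2 siRNA over Luc siRNA) of the 56 tested nucleolar factors, grouped by role, with bars of 1 standard error. Red points passed the test upward (26 genes), blue downward (1 gene, Imp3), and grey points did not pass; most points lie right of 0.

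Genes grouped as transcription and nucleolar scaffold factors rose in 6 of 9 cases, with a median log2 fold change of 0.22. That is 66.7% raised and 66.7% called, beside 18.8% raised and 38.9% called over all genes tested. Ncl, which encodes the abundant nucleolar RNA-binding protein nucleolin (chromosome 1, 86344719 to 86359400, minus strand, GRCm38), had 2231, 2273 and 2423 CPM in the Crebl2 siRNA libraries, against 1841, 1865 and 1816 CPM in the Luc siRNA libraries. Each Crebl2 siRNA library lay above every Luc siRNA library, and the log2 fold change was 0.33 (SE 0.0476; edgeR adjusted p = 4.36e-05). Rrn3, the factor that brings RNA polymerase I to the ribosomal DNA promoter, had 268, 271 and 282 CPM with Crebl2 siRNA and 223, 222 and 218 CPM with Luc siRNA (log2 fold change 0.31, SE 0.0466, edgeR adjusted p = 6.65e-05). The groups were again apart.

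The helicase gene Ddx21, whose protein acts on RNA polymerase I transcripts and small nucleolar RNAs, was at 419, 414 and 438 CPM after Crebl2 knockdown and at 357, 348 and 362 CPM in Luc siRNA cells, a log2 fold change of 0.25. Nolc1, a chaperone of small nucleolar particles, reached 422, 396 and 397 CPM with Crebl2 siRNA, against 332, 347 and 366 CPM with Luc siRNA (0.22 on the log2 scale). For Mybbp1a, a nucleolar protein that binds MYB and other transcription factors, the libraries held 2227, 2163 and 2065 CPM with Crebl2 siRNA and 1819, 1902 and 1859 CPM with Luc siRNA (0.21). In all 3 genes the groups did not overlap, and edgeR adjusted p-values were 0.00283 or lower.

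Npm1, which encodes the nucleolar chaperone nucleophosmin, gave 74.3, 72.6 and 88.4 CPM in Crebl2 siRNA libraries, against 67.7, 68.2 and 69.3 CPM in Luc siRNA libraries. Its value of 0.20 on the log2 scale (SE 0.0684; edgeR adjusted p = 0.0303) came with 1 high library, Crebl2 siRNA replicate 3, and was 0.10 without it. It was no longer called without that library or without any 1 of the Luc siRNA libraries (edgeR adjusted p up to 0.115). Its counts came mostly from a row with 294 bases of its own out of 1157, and its level is uncertain for that reason. Tcof1, the gene of the nucleolar protein treacle, was seen through 108 bases and had 93, 94 and 95 counts with Crebl2 siRNA and 74, 85 and 74 with Luc siRNA. The ratio of summed counts, scaled for library size, was 1.21 (95% exact binomial interval 1.02 to 1.45), and the adjusted p by edgeR was 0.141.

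MYC and the RNA polymerase I factor UBF could hardly be measured in these files. The main row of Myc (chromosome 15, 61985391 to 61990374, plus strand) has 85 bases that no other transcript row shares, and the gene held 14, 13 and 5 counts in Crebl2 siRNA libraries and 16, 11 and 12 in Luc siRNA libraries. The ratio was 0.822, with an interval of 0.498 to 1.35 that spans both a fall and a rise (edgeR adjusted p = 0.61). For Ubtf, the UBF gene, 17, 8 and 15 counts in Crebl2 siRNA libraries stood against 9, 17 and 18 in Luc siRNA libraries, a ratio of 0.91 (0.578 to 1.43). The intervals here cover counting error alone, and reads that carry no molecular identifier may be copies of 1 molecule. A difference in either gene was not detectable at this depth.

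Of 12 further genes of the MYC and MAX network, 7 were tested, 1 rose and 2 fell. The shares called and raised were 42.9% and 14.3%, beside 38.9% and 18.8% over all genes tested. Mxd3, a repressor that pairs with MAX, had 9.24, 9.8 and 6.81 CPM in Crebl2 siRNA libraries, against 4.21, 5.41 and 4.91 CPM in Luc siRNA libraries (log2 fold change 0.83). Mnt, another MAX-binding repressor, was lowered, at 117, 115 and 102 CPM with Crebl2 siRNA beside 139, 146 and 148 CPM with Luc siRNA (-0.38), as was Mxd4 (-0.23; edgeR adjusted p of the 3 at most 0.00251). Max itself held 1 count in all 6 libraries together, in a row with 32 bases of its own, and could not be tested. The median log2 fold change of the 7 was -0.20.

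MYC and its relatives bind the E-box CACGTG, a word that reads the same on both strands. RefSeq promoters (GRCm38.p6), from 250 bases before to 50 after a start, were found by symbol for 46 of the 58 genes. The word occurred in 10 of these 46 (21.7%), beside 8.09% of all 27025 genes with a promoter and 11.4% of the 8333 that were also tested. Of the 9 tested nucleolar factors with the word, 6 had risen (Mybbp1a, Nop2, Rrn3, Utp4, Utp18 and Utp20), and of 35 without it, 18 had. Over all tested genes the share raised was 17.9% with the word and 19.2% without it. The full CREB site TGACGTCA, also the same on both strands, was found in 1 of the 46, Noc4l, which was not called, and in 2.03% of all genes. A match describes the letters in the window and is not evidence of binding.

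In 4 genes the E-box lay before the start, and these promoters are shown, 250 bases 5′ to 3′ on the gene's strand, with the E-box in capitals. In Rrn3 (chr16:13780449-13780698, plus strand) the boxes began 215 and 48 bases before the start. In Nop2 (chr6:125131633-125131882, plus strand) the box began 60 bases, in Utp18 (chr11:93885767-93886016, minus strand) 20 bases and in Imp4 (chr1:34439579-34439828, plus strand) 121 bases before it. The first 3 genes rose after Crebl2 knockdown, whereas Imp4 did not pass the test.
Rrn3: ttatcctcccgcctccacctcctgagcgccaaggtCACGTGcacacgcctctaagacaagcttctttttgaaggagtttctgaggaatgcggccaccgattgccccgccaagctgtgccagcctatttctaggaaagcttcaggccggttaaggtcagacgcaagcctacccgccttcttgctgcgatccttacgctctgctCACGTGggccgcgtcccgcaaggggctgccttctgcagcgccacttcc
Nop2: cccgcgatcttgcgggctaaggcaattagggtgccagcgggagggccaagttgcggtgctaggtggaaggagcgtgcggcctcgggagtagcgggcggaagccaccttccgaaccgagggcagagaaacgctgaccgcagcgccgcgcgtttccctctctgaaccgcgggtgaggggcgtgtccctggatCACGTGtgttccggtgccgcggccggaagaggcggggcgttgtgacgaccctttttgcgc
Utp18: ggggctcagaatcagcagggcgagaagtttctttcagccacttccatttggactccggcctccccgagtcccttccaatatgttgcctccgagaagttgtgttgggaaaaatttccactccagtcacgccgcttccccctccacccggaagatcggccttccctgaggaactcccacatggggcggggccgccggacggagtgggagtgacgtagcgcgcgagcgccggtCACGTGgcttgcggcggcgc
Imp4: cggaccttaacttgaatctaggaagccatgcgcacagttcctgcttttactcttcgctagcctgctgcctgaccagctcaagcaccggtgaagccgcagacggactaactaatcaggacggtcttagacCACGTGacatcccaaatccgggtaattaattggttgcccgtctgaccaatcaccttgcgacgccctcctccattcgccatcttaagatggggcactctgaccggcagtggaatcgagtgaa

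Of the 4 box C/D particle proteins, 3 rose, and their median log2 fold change was 0.31. The share raised and called was 75%, beside 18.8% raised and 38.9% called over all genes tested. Rrp9, a protein specific to the particle that starts precursor cutting, had 73.5, 70.9 and 61.7 CPM in Crebl2 siRNA libraries, against 51.7, 58.9 and 51.7 CPM in Luc siRNA libraries (log2 fold change 0.35, SE 0.0721, edgeR adjusted p = 0.00116). Fbl, the gene of the methyltransferase fibrillarin (chromosome 7, 28169710 to 28179269, plus strand), was at 23.1, 25.6 and 20.0 CPM with Crebl2 siRNA and at 17.2, 20.2 and 17.6 CPM with Luc siRNA. Its log2 fold change was 0.32 (SE 0.0939; edgeR adjusted p = 0.0126), but Crebl2 siRNA replicate 3 lay just under Luc siRNA replicate 2, and the call was lost without Crebl2 siRNA replicate 2, Luc siRNA replicate 1 or Luc siRNA replicate 3 (edgeR adjusted p up to 0.0851).

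The core proteins Nop56 and Nop58, which sit together in every box C/D particle, gave different values. Nop58 reached 38.0, 41.4 and 50 CPM after Crebl2 knockdown, against 34.3, 34.8 and 35.2 CPM in Luc siRNA cells, 0.31 on the log2 scale (SE 0.083; edgeR adjusted p = 0.00685). Without Crebl2 siRNA replicate 3, its highest library, the value was 0.19 and still called (edgeR adjusted p = 0.0206). Its counts all came from a long transcript row of 9507 bases. The other row, of 1713 bases, has 32 bases of its own and no counts. The values therefore describe the long row's own bases, and the short transcript was hardly measured. Nop56 was at 83.7, 77.3 and 76.7 CPM with Crebl2 siRNA and at 75.2, 79.9 and 81.8 CPM with Luc siRNA, overlapping groups at 0.01 on the log2 scale (SE 0.0572; edgeR adjusted p = 0.957). Whether the pair differed in response was not tested.

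Of the 4 box H/ACA proteins, 2 rose, with a median log2 fold change of 0.14. That is 50% raised and 50% called, beside 18.8% raised and 38.9% called over all genes tested. Gar1 (chromosome 3, 129824912 to 129831396, minus strand), a subunit needed for the particle to release its product, had 97.8, 106 and 103 CPM in Crebl2 siRNA libraries, against 77.8, 82.1 and 78.4 CPM in Luc siRNA libraries (log2 fold change 0.36, SE 0.0536, edgeR adjusted p = 4.93e-05). The groups were well apart. Nhp2, the particle's RNA-binding subunit, was at 170, 170 and 159 CPM with Crebl2 siRNA and at 140, 159 and 147 CPM with Luc siRNA, 0.16 on the log2 scale (edgeR adjusted p = 0.0284), with the lowest Crebl2 siRNA and the highest Luc siRNA library side by side. This call was lost with replicate number as a block and in 4 of 6 runs without 1 library (edgeR adjusted p up to 0.138). Gar1 was the 1 raised H/ACA gene with the block and without Crebl2 siRNA replicate 2, Luc siRNA replicate 1 or Luc siRNA replicate 3.

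Dkc1, the gene of the pseudouridine synthase dyskerin, had 197, 197 and 215 CPM after Crebl2 knockdown, against 189, 186 and 186 CPM with Luc siRNA. The groups did not overlap, but the log2 fold change of 0.12 did not pass the test (SE 0.0505; edgeR adjusted p = 0.0685). Nop10, the smallest subunit, stood at 185, 180 and 177 CPM with Crebl2 siRNA and 173, 179 and 179 CPM with Luc siRNA, overlapping values at 0.03 on the log2 scale (edgeR adjusted p = 0.637). The plot of CPM by library shows both particles side by side.

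**Figure D2:**
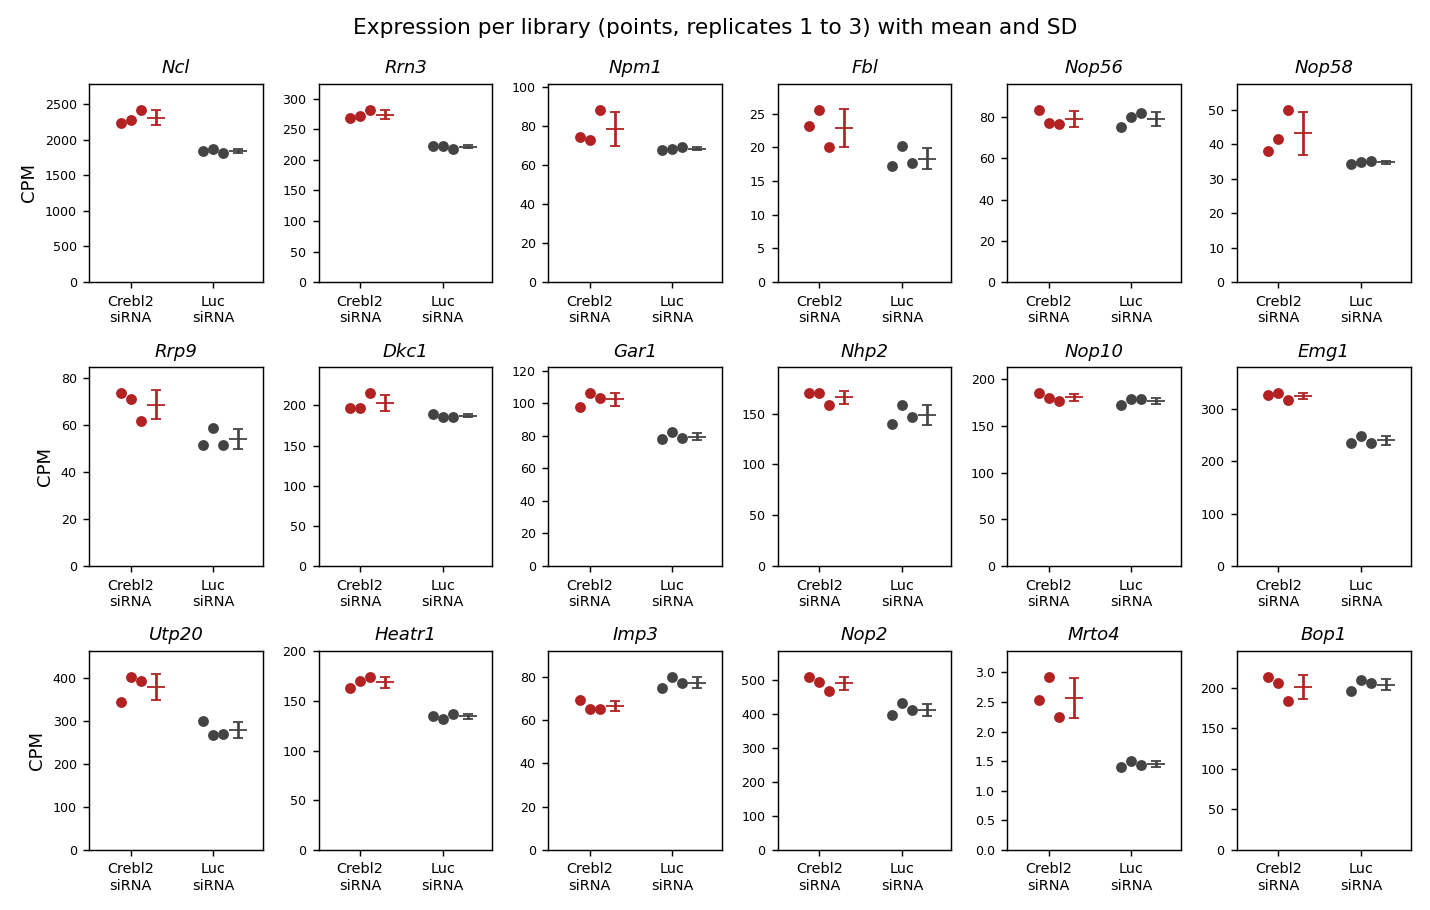
CPM per library (y axis, from 0) for 18 nucleolar factors, with Crebl2 siRNA libraries in red on the left and Luc siRNA libraries in black on the right of each panel; points are replicates 1 to 3, and the bar beside them is the mean and SD. Emg1, Gar1, Rrn3 and Ncl show groups far apart, Nop56, Nop10 and Bop1 overlap, and Imp3 is the gene with lower Crebl2 siRNA values.

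The RNAs of these particles were poorly covered. Rows annotated as small nucleolar or small Cajal body RNA summed to 178, 178 and 158 CPM in Crebl2 siRNA libraries and 155, 166 and 184 CPM in Luc siRNA libraries (exact two-sided permutation p = 0.9). RNAs named Snord, of the box C/D kind, summed to 54.6, 52.3 and 48.7 CPM with Crebl2 siRNA and 52.5, 55.6 and 58.6 CPM with Luc siRNA, and those named Snora, of the H/ACA kind, to 38.8, 37.4 and 37.6 CPM with Crebl2 siRNA and 37.8, 40.0 and 41.1 CPM with Luc siRNA (exact two-sided permutation p = 0.2 for each, where 0.1 is the smallest that 3 against 3 allows). Of 99 such genes with enough counts, 2 rose and 1 fell by edgeR. The median of these 99 genes was 20 counts per library, so small differences were not detectable at this depth.

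Genes of nucleolar factors are themselves hosts of small nucleolar RNAs. Of the 58, 6 (10.3%) hold annotated ones inside the gene on the same strand (Ncl, Nop56, Nop58, Dkc1, Wdr43 and Gnl3), beside 1.81% of 9957 tested protein-coding genes. The 19 RNAs within them had 829 counts in Crebl2 siRNA and 637 in Luc siRNA libraries, and most of that excess fell on 1 RNA in Nop56, Gm23187, chosen here after its values were seen. It had 182, 176 and 153 counts with Crebl2 siRNA, against 80, 119 and 137 with Luc siRNA, groups that did not overlap (log2 fold change 0.60, SE 0.166, edgeR adjusted p = 0.00836). Its host Nop56 was not called. Whether these reads come from the mature RNA or from unspliced Nop56 was not tested.

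Gm23187 (chr2:130277195-130277280, plus strand, GRCm38) is 86 bases long and is shown 5′ to 3′ from the GENCODE M21 transcripts, with the last CTGA, the letters of a box D, in capitals at base 77. That word starts within the last 15 bases in 92.9% of 98 annotated Snord RNAs and in 5% of 40 Snora RNAs; Gm23187 also holds it there.
Gm23187: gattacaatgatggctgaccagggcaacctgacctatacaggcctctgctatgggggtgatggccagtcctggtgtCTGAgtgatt

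Of 23 genes of the small-subunit processome 9 rose and 1 fell, the single fall among the nucleolar factors, with a median log2 fold change of 0.13. The shares raised and called were 39.1% and 43.5%, beside 18.8% and 38.9% over all genes tested. Emg1 (chromosome 6, 124704085 to 124712178, minus strand), a methyltransferase of small-subunit ribosomal RNA, had the smallest p of all nucleolar factors. It reached 327, 330 and 318 CPM in Crebl2 siRNA libraries, against 235, 249 and 236 CPM in Luc siRNA libraries (log2 fold change 0.44, SE 0.0474, edgeR adjusted p = 2.1e-06). The spread within each group was small beside that gap.

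Utp20 (chromosome 10, 88746607 to 88826804, minus strand), a very large processome scaffold protein, was at 344, 402 and 392 CPM after Crebl2 knockdown and at 300, 268 and 269 CPM in Luc siRNA cells, 0.44 on the log2 scale (SE 0.0622; edgeR adjusted p = 2.98e-05). Heatr1, whose yeast counterpart is needed for transcription of the precursor, had 163, 170 and 174 CPM with Crebl2 siRNA and 135, 132 and 137 CPM with Luc siRNA (0.32 on the log2 scale). The GTPase gene Bms1 stood at 375, 378 and 367 CPM with Crebl2 siRNA, against 298, 304 and 311 CPM with Luc siRNA (0.30). In all of these the groups were apart.

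Other processome proteins also rose. Utp18 had 175, 183 and 202 CPM in Crebl2 siRNA libraries, against 152, 150 and 150 CPM in Luc siRNA libraries (log2 fold change 0.31, edgeR adjusted p = 0.000343). Utp15, of the subcomplex that binds the precursor first, had 93.6, 96.1 and 98.9 CPM with Crebl2 siRNA and 87.1, 85.3 and 86.0 CPM with Luc siRNA (0.16, edgeR adjusted p = 0.0197). Wdr75 (0.16) and Utp4 (0.14) of that subcomplex and the helicase gene Dhx37 (0.17) also passed, with edgeR adjusted p-values from 0.0261 to 0.0355. Each of Utp4, Utp15, Wdr75 and Dhx37 lost its call with replicate number as a block and without at least 3 of the 6 libraries in turn, and Wdr75 was at 0.09 without Crebl2 siRNA replicate 3. The count of raised processome genes was 5 with that block, 5 without Luc siRNA replicate 2, and 14 with library size scaling.

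Imp3 (chromosome 9, 56937475 to 56938398, plus strand) was the nucleolar factor that fell. It had 69.2, 65.1 and 65.3 CPM in the Crebl2 siRNA libraries, against 74.9, 79.8 and 77.3 CPM in the Luc siRNA libraries, groups that did not overlap (log2 fold change -0.22, SE 0.0548, edgeR adjusted p = 0.00481). The call held under all 13 alternative settings, where the edgeR, DESeq2 or limma adjusted p reached at most 0.0388. Its partner in the same trimeric complex, Imp4, had 188, 186 and 184 CPM with Crebl2 siRNA and 168, 176 and 168 CPM with Luc siRNA, and just missed the threshold (0.12, edgeR adjusted p = 0.0521). The complex's other protein, Mphosph10, from the list of other small-subunit factors, rose, at 87.2, 91.1 and 101 CPM with Crebl2 siRNA beside 78.7, 78.2 and 72.6 CPM with Luc siRNA (0.28, edgeR adjusted p = 0.00162).

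The other 13 processome genes did not pass. Wdr43 was closest, at 361, 362 and 404 CPM in Crebl2 siRNA libraries and 347, 342 and 339 CPM in Luc siRNA libraries (log2 fold change 0.13, edgeR adjusted p = 0.0508). Wdr43 and Imp4 were each called raised in 6 of the 13 alternative settings, and Tbl3 in 4. Utp14a (0.14), Tbl3 (0.17), Pwp2 (0.10), Nop14 (0.07), Ddx10 (0.06) and Wdr3 (0.04) had positive values, and Utp3 (-0.02), Utp6 (-0.06) and Noc4l (-0.08) negative ones; Utp11 was at 0.00 to 2 decimals. Wdr36 had the lowest value of the list, -0.35, from 85, 91 and 85 counts with Crebl2 siRNA and 102, 110 and 122 with Luc siRNA (edgeR adjusted p = 0.0579). It was called lowered when Luc siRNA replicate 1 was left out (adjusted p = 0.0387), and its counts fell on 33.4% of the row's bases.

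Of 4 factors that finish the small subunit 1 rose, and the median log2 fold change of -0.01 changed sign with the setting (-0.03 to 0.04). The share raised and called was 25%, beside 18.8% raised and 38.9% called over all genes tested. Nob1, the endonuclease that makes the last cut in small-subunit ribosomal RNA, rose, with 192, 190 and 185 CPM in Crebl2 siRNA libraries, against 158, 166 and 156 CPM in Luc siRNA libraries (log2 fold change 0.24, SE 0.0488, edgeR adjusted p = 0.000903). The other 3 overlapped between groups. Rrp12 had 82.9, 75.9 and 76.0 CPM with Crebl2 siRNA and 77.4, 85.1 and 84.7 CPM with Luc siRNA, a log2 fold change of -0.07. Ltv1 had 91.4, 94.2 and 99.2 CPM with Crebl2 siRNA and 98.0, 102 and 97.6 CPM with Luc siRNA (-0.06). Bysl had 117, 98.9 and 99.7 CPM with Crebl2 siRNA and 101, 101 and 103 CPM with Luc siRNA (0.05). None of the 3 passed (lowest edgeR adjusted p 0.349).

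Large-subunit factors rose in 5 of 12 tested cases, with a median log2 fold change of 0.14. That is 41.7% raised and 41.7% called, beside 18.8% raised and 38.9% called over all genes tested. Nop2, a methyltransferase of large-subunit ribosomal RNA, had 508, 493 and 468 CPM in Crebl2 siRNA libraries, against 396, 431 and 411 CPM in Luc siRNA libraries (log2 fold change 0.25, SE 0.05, edgeR adjusted p = 0.000902). Nip7 was at 57.6, 56.7 and 60.0 CPM with Crebl2 siRNA and at 52.0, 50.7 and 51.0 CPM with Luc siRNA (0.18). Gnl3, the gene of the nucleolar GTP-binding protein nucleostemin, had 210, 209 and 237 CPM with Crebl2 siRNA and 186, 200 and 193 CPM with Luc siRNA (0.18), and Noc3l 118, 114 and 131 CPM with Crebl2 siRNA beside 104, 110 and 112 CPM with Luc siRNA (0.16). The groups of these 4 genes were apart, while the last 3 had edgeR adjusted p-values of 0.0149 to 0.0425 and lost their call without 2 or more of the libraries in turn. Noc3l also lost it with replicate number as a block (edgeR adjusted p = 0.0688) and with no filter on low counts (0.0503), and its value was 0.10 without Crebl2 siRNA replicate 3. The count of raised large-subunit factors was 2 without Luc siRNA replicate 3, and 3 without Luc siRNA replicate 1, Luc siRNA replicate 2 or Crebl2 siRNA replicate 3.

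Mrto4 had the largest fold change of the 56 tested genes, on few counts. Its protein holds the place of a stalk protein on the unfinished large subunit. The libraries held 71, 81 and 62 counts with Crebl2 siRNA, against 40, 42 and 39 with Luc siRNA, a ratio of 1.77 (95% exact binomial interval 1.41 to 2.23; edgeR adjusted p = 0.00175). Only 291 bases of its row are its own, and the annotation holds 2 pseudogenes named after it, so the value is uncertain. Among the 50 tested factors with at least 1000 counts, which leave out Mrto4, 25 rose (50%). Over all genes tested, which were not limited to that depth, 18.8% rose. With a filter at 1 CPM, 30 of 54 nucleolar factors rose, and 2138 of 9671 genes over all.

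The PeBoW complex, made of Pes1, Bop1 and Wdr12 and needed for large-subunit assembly, was measured in part. Bop1 had 213, 206 and 184 CPM in Crebl2 siRNA libraries and 196, 209 and 206 CPM in Luc siRNA libraries, overlapping groups (log2 fold change -0.02, edgeR adjusted p = 0.811). Wdr12 had 84, 75 and 100 counts with Crebl2 siRNA, against 73, 69 and 55 with Luc siRNA, a ratio of 1.32 (1.09 to 1.59) that did not pass the test (edgeR adjusted p = 0.0703). Pes1 had 0 counts in every library; its 2 rows have 12 bases and 0 bases of their own, and 0 counts allow a level of up to 0.105 to 0.111 CPM on those bases. Noc2l, with 0 or 1 counts per Crebl2 siRNA library and 1 to 3 per Luc siRNA library, was likewise not tested. Nop16 had 36.8, 38.1 and 38.5 CPM with Crebl2 siRNA and 33.9, 36.2 and 34.1 CPM with Luc siRNA (0.12), groups apart that did not pass (edgeR adjusted p = 0.131). Rrs1 had 87.2, 83.2 and 85.7 CPM with Crebl2 siRNA and 78.3, 87.3 and 81.7 CPM with Luc siRNA (0.05), which overlap. Rrp1b (0.02), Ebna1bp2 (0.01) and Gnl2 (-0.03) had log2 fold changes near 0 and were not called.

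Levels differ widely between these genes when set per length. Over the 45 genes whose main row is at least 80% its own bases, CPM per kilobase of own sequence averaged over the libraries was highest for Mybbp1a (509 in Crebl2 siRNA and 440 in Luc siRNA cells), Emg1 (326 and 241) and Ncl (282 and 224). It was lowest for Nop58 (5.51 and 4.44), Rrp12 (18 and 19) and Fbl (19.1 and 15.3). The Nop58 value describes its long row alone, since the short row was hardly measured, and its level as a gene is uncertain. Annotated row length enters these values: the Ncl row spans 8202 bases. Of the same 45 genes, 24 rose (53.3%) and 1 fell, with a median log2 fold change of 0.16. Over all genes tested, which were not limited by own bases, 18.8% rose.

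Set side by side, the roles had median log2 fold changes of 0.31 for the box C/D particle, 0.22 for transcription and scaffold factors, 0.14 for the box H/ACA particle and for large-subunit factors, 0.13 for the processome and -0.01 for late small-subunit factors. Over the alternative settings these medians ran from 0.28 to 0.36, 0.19 to 0.26, 0.12 to 0.19, 0.10 to 0.19, 0.11 to 0.18 and -0.03 to 0.04. The particle and late groups have 4 genes each, and differences between roles were not tested.

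Ribosome biogenesis genes outside the list were also raised more often than lowered. These genes come from 5 further lists, which were also chosen with earlier results of these data known. Of their 119 genes, 106 were tested, 42 rose and 4 fell, and the median log2 fold change was 0.15. The shares called and raised were 43.4% and 39.6%, beside 38.9% and 18.8% over all genes tested. Without Luc siRNA replicate 3, 27 rose, and without Crebl2 siRNA replicate 3, 7 fell. The plot of cumulative fold changes shows them next to the nucleolar factors. Of 28 tested small-subunit factors 11 rose. Krr1, a processome protein, had 49.9, 52.2 and 60.8 CPM with Crebl2 siRNA and 40.0, 42.6 and 42.4 CPM with Luc siRNA (0.38), and the cytidine acetyltransferase gene Nat10 (0.20) and the processome gene Nol6 (0.21) were also raised. Of 35 large-subunit factors 14 rose and 2 fell, including rises in Nol8 (0.32), the export adaptor gene Nmd3 (0.29), Ppan (0.23) and the methyltransferase gene Ftsj3 (0.22).

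Of 10 assembly factors of small nucleolar particles, 3 rose. That is 30% raised and 30% called, beside 18.8% raised and 38.9% called over all genes tested. The raised genes were Rpap3 (0.31) and Ruvbl1 (0.21), whose proteins belong to a chaperone complex, and Znhit3 (0.25). In this list 1 gene had a negative log2 fold change, -0.59, and it did not pass the test. Of 21 tested RNase MRP and exosome genes 10 rose and 1 fell (47.6% raised and 52.4% called). Rises included the RNase P subunit gene Rpp21 (0.40), the exoribonuclease gene Dis3 (0.34) and the exosome ring genes Exosc7 (0.27) and Exosc9 (0.26). Of 12 tested genes of RNA polymerase I and its initiation factors, 4 rose (33.3%) and 1 fell. Their median log2 fold change was 0.07. The share called was 41.7%, beside 38.9% over all genes tested, and the share raised over all genes was 18.8%. Polr1c, a subunit shared with RNA polymerase III, had 67.2, 64.8 and 61.9 CPM in Crebl2 siRNA libraries, against 49.5, 51.0 and 47.5 CPM in Luc siRNA libraries (0.39). Polr1d, the subunit that pairs with it, fell to 280, 284 and 281 CPM in Crebl2 siRNA libraries, against 352, 347 and 337 CPM in Luc siRNA libraries (-0.29, edgeR adjusted p = 8.51e-05). The other lowered genes of the 5 lists, named after their values were seen, were the exosome-associated Mphosph6 (-0.30), Rrp1 (-0.20) and the helicase gene Ddx54 (-0.20).

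**Figure D3:**
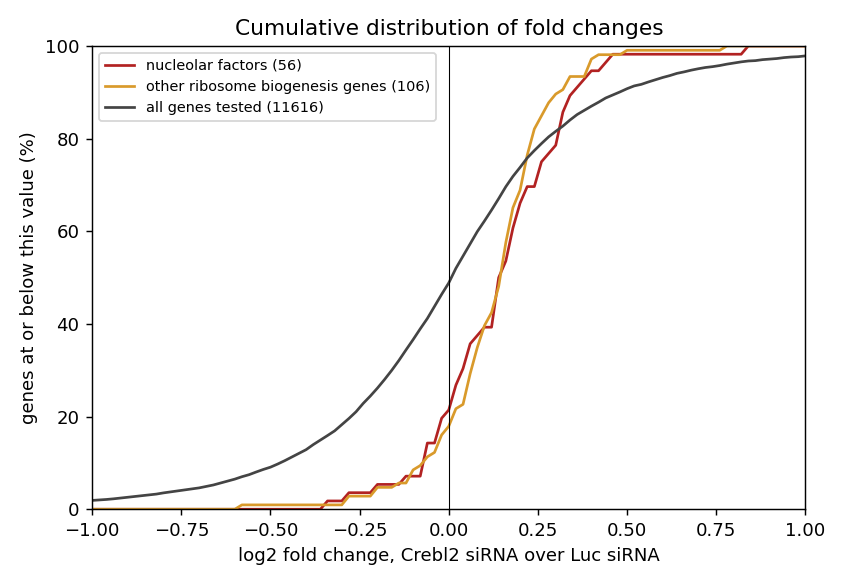
Share of genes (y axis, %) at or below each log2 fold change (x axis, Crebl2 siRNA over Luc siRNA) for 56 nucleolar factors (red), 106 other ribosome biogenesis genes (yellow) and all 11616 genes tested (black). The first 2 curves rise steeply right of 0, with medians of 0.15 each, and span a narrower range than the black curve.

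Of 14 tested cell division genes 10 rose (71.4%, beside 18.8% raised over all genes tested), with a median log2 fold change of 0.41. Their summed level was 3292 to 3469 CPM in Crebl2 siRNA libraries, against 2457 to 2609 CPM in Luc siRNA libraries. Ccne1, the gene of cyclin E, had 102, 99.4 and 97.9 CPM with Crebl2 siRNA and 64.9, 59.1 and 60.4 CPM with Luc siRNA (0.70). The part of cell division in the rise of nucleolar factors was not tested. Gene models that carry ribosomal RNA sequence (Gm42418, Gm26917 and AY036118) held 451, 431 and 456 CPM with Crebl2 siRNA and 496, 484 and 491 CPM with Luc siRNA (exact two-sided permutation p = 0.1, the smallest possible). How far these reads follow the removal of ribosomal RNA from a library was not tested.

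Replicates within both groups differed from each other along base composition. Across the 56 tested nucleolar factors, the log2 ratio of Crebl2 siRNA replicate 3 to the mean of the other 2 replicates had a Spearman correlation of -0.75 with the transcript's content of G and C, that of replicate 1 one of 0.75 and that of replicate 2 one of 0.45. In the Luc siRNA group the values for replicates 1, 2 and 3 were -0.57, 0.51 and 0.01. Over 11576 genes they were 0.44, 0.07 and -0.44 for Crebl2 siRNA replicates 1, 2 and 3, and -0.24, 0.19 and 0.11 for those of Luc siRNA. Nop58 and Npm1, low in G and C (41.0% and 42.7%), were highest in replicate 3, whereas Fbl and Rrp9 (56.7% and 59.8%) were lowest in it. The fold change between the groups had a correlation of -0.05 with the same content, both in these 56 genes and over all genes. These are descriptions across genes that share libraries. Without Crebl2 siRNA replicate 3, 24 nucleolar factors rose and the median log2 fold change was 0.12; without Crebl2 siRNA replicate 2, which stood apart in its mitochondrial share, 22 rose and it was 0.15.

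**Figure D4:**
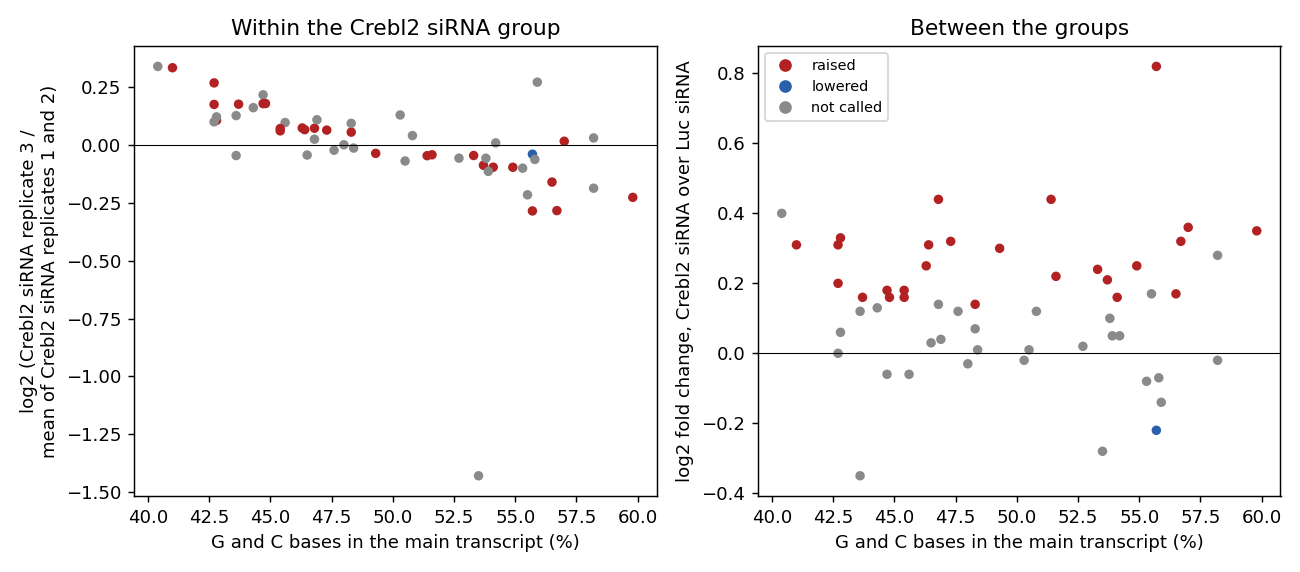
Content of G and C bases in the main transcript (x axis, %) of the 56 tested nucleolar factors, against the log2 ratio of Crebl2 siRNA replicate 3 to the other 2 replicates (left) and the log2 fold change between Crebl2 siRNA and Luc siRNA (right), coloured by call. The left panel slopes downward (Spearman correlation -0.75), the right panel shows no slope (-0.05); the lowest point on the left is Myc, with 5 counts in that library.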

How the data were processed

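Each deposited file lists 58611 Ensembl transcripts with a whole-number read count for 1 library, which the authors did not normalise, judged from the values. Trim Galore, TopHat, HTSeq and the builds mm9 and GRCm38 are named in the submitters' processing notes; versions, roles and settings, the strand setting of the counting included (the kit is stranded, per the labels' protocols), are not given in the sources used here. Transcripts were matched to genes by GENCODE M21 (GRCm38), 58264 of 58611 identifiers; the rest took no more than 0.0497% of any library. Reads on several transcripts were apparently not counted: 9603 transcripts without any base unique to them took 0.0235% of counts. A deposited count therefore reflects bases unique to 1 transcript ("own bases").

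Counts were summed per gene and tested in R 4.3.3 with edgeR 4.0.16, by its quasi-likelihood test (TMM scaling, filterByExpr, group as the only term, two-sided, Benjamini-Hochberg over 11616 genes). CPM used TMM-scaled library sizes; SE was derived from the fold change and its F statistic. DESeq2 1.42.0, limma-voom (limma 3.58.1), other filters and scalings, the top row alone, a replicate block and runs without each library were alternatives. The procedure was tested on simulated counts. The labels do not say that replicate numbers mark shared cultures, so numbers were not taken as pairs. Same-numbered libraries of the 2 groups also did not deviate together (correlations -0.133, -0.0443 and -0.0847).

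Nucleolar factors, roles and lists were chosen with earlier results of these data known. Values in every library are given for particle proteins, Myc, Ncl, Npm1 and Fbl, and per role for up to 6 called genes of smallest p and 3 of smallest p that were uncalled or moved the other way (Imp3 among them), with Bop1 and Wdr36 added after their values were seen; of other lists, up to 4 called genes of smallest p. Symbols Polr1f, Polr1g and Polr1h, newer names of listed genes, had no row of their own. The value of 1 listed leukocyte marker is not reported here.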

Additional observations from a re-analysis of the deposited data

How the results depend on the processing

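Raised nucleolar factors outnumbered lowered ones under all 13 alternative settings, and 0 of the single-gene calls reversed. Of 27 called nucleolar factors, 17 stayed called in every setting, and 9 uncalled ones were called in at least 1. The 9 were Wdr43 and Imp4 (6 settings each), Tbl3 (4), Dkc1 (3), Utp14a and Wdr12 (2 each), and Wdr36, Pwp2 and Nop16 (1 each). Raised nucleolar factors numbered 27 with DESeq2, 28 with limma-voom, 30 with a 1 CPM filter, 24 without a filter, 28 with the top transcript row and 34 with library size scaling; lowered ones numbered 1 in each. The replicate block gave 20 raised and 1 lowered nucleolar factors, with the numbers not shown to pair the libraries. Leaving out 1 library gave 17 to 26 raised, 1 to 2 lowered (Imp3, and Wdr36 without Luc siRNA replicate 1), and a median log2 fold change of 0.12 to 0.15. For other ribosome biogenesis genes it gave 27 to 44 raised and 3 to 7 lowered, and over all genes tested 1694 to 2243 raised. Library size scaling moved the median of the nucleolar factors to 0.20, and that of all genes to 0.054. Of the other shifts, the cause was not tested. Depth limits Myc, Ubtf, Pes1 and Noc2l, seen through few own bases.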
